A study of Mus musculus with 4 samples.

Results

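The genes described here are 42 genes of transforming growth factor beta (TGF-beta) and bone morphogenetic protein (BMP) signalling, taken by name from a given list. They comprise 10 ligands, 12 receptors and co-receptors, 10 proteins that bind or release ligands outside the cell, 7 Smad proteins and 3 target genes. They stand among 18194 genes named on the arrays and are read by 96 of 45265 probe sets. RNA was taken from lungs of mouse embryos at E18.5, close to birth. One genotype was wild type, labelled BALB/c. The other was the double knockout Myf5-/-:MyoD-/-, labelled BALB/c Myf5:Myod null, which lacks both of these myogenic regulators and does not form skeletal muscle. The title of the series gives its subject as the part of skeletal muscle in lung development.

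Ligands of this family are secreted dimers, and those of the TGF-beta and activin branches are distinguished from the BMP branch by the receptors they engage. A ligand joins type II and type I receptor kinases, which phosphorylate receptor Smads. These enter the nucleus with Smad4 and change transcription, while Smad6 and Smad7 feed back on the receptors. Latent TGF-beta is held in the matrix by binding proteins, and BMPs are captured by soluble antagonists such as noggin, chordin, gremlin and follistatin. In the developing lung these signals take part in branching, in the formation of smooth muscle and in septation of the distal air spaces.

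There were 4 Affymetrix arrays, 1 for each genotype on each of 2 designs, MOE430A and MOE430B, so no test between genotypes was possible and no p-value is given. The labels do not say whether RNA was pooled or whether both designs received the same RNA. All 42 genes have a probe set on MOE430A and 18 on MOE430B. Signals are given in the order wild type, double knockout, and a log2 ratio above 0 means a higher signal in the array labelled double knockout. A probe set was counted as measured, or passing, if at least 1 of its signals was no lower than the median signal of its design (787.4 on MOE430A, 855.1 on MOE430B). Signals under the floor of 283.8 and 278.1, the 25th percentiles, were set to that floor. On each design a gene was represented by the brightest of its passing probe sets, judged by the mean of both arrays.

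Without replicates, error was judged from the 100 probe sets that the designs share. These put the SD of a single log2 ratio at 0.24, and the mean difference between designs (MOE430B minus MOE430A) at -0.22. None of the 100 reads a gene of the given list, and their ratios correlated at 0.12 between designs. The median ratio of their wild type signals, MOE430B over MOE430A, was 4.28. Both designs may have received the same RNA, so the SD of 0.24 need not contain variation between animals. Below, the error of 1 log2 ratio means this spread between designs, which may be too small for dim probe sets. The SD between probe sets of 1 gene was larger, 0.37 on MOE430A and 0.71 on MOE430B. Several other readings moved with genotype. The Myod1 probe set on MOE430A read 85.0 and 1081, against its labels, and one on MOE430B read 337 and 607, below the filter, so each direction below rests on the labels. Of 8 skeletal muscle markers on MOE430A, 3 were measured and 2 of these were below 0, and Myh3 and Mylpf were under the floor in the array labelled double knockout alone, while the summed signal of the list was 44208 and 47866. Whether the Myod1 probe sets overlap the deleted part of the gene is not known here, and one that does not overlap checks nothing. The Myf5 probe set read 111 and 8.94, both under the floor. The labels do not give sex, and Xist, made by the inactive X chromosome, read 7600 and 2749. Genes of the Y chromosome stayed below the filter. On MOE430A Kdm5d read 287 and 737, and also 87.2 and 395, and 61.3 and 43.6. Uty read 316 and 353, and also 165 and 653, and Eif2s3y read 13.1 and 502. On MOE430B the probe sets of Uty and Eif2s3y were under the floor in both arrays. Whether the arrays differ in sex was not tested. The 18S ribosomal RNA controls had median ratios, double knockout over wild type, of 3.91 and 3.13 on the MOE430A and MOE430B designs. Of 15 lymphoid markers, 11 were measured on MOE430A and 10 of these were below 0, and their summed signal over the 13 with a probe set was 27933 and 4471. Thymic epithelium markers, 4 of 6 measured there with 3 below 0, summed to 8966 and 3008 over 5 genes. Alveolar type II markers, 9 of 10 measured, were 8 above 0 with a median of 0.49 and summed to 149638 and 209484, and all 5 club cell markers were above 0 with a median of 0.37. Over all measured genes of MOE430A, 51.3% were above 0. The part of these lists in the values below was not tested. As a check of the tissue label, the surfactant protein gene Sftpc read 78525 and 113337. In whole lung RNA, fewer cells of a type and less RNA per cell cannot be told apart.

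Most of the pathway genes, like most genes on the arrays, read nearly the same in both genotypes. On MOE430A 33 of the 42 genes were measured, and 31 of them had a log2 ratio within 0.5 of 0, which is 93.9% against 82.6% of all measured genes. Of the 33, 21 were above 0 (51.3% of all genes on the design were), none was at least 1.5-fold higher (6.23% of all genes), 1 was at least 1.5-fold lower (6.32%), and none was 2-fold higher (1.76%) or lower (1.78%). The median log2 ratio was 0.09, against 0.01 for all genes. On MOE430B 14 genes were measured and 5 were above 0 (46.0% of all genes). None was at least 1.5-fold higher (14.3%) or 2-fold higher (7.07%), 3 were at least 1.5-fold lower (14.0%) and 2 of these at least 2-fold lower (6.26%), with a median of -0.20 against -0.04. There 11 of the 14 were within 0.5 of 0, 78.6% against 66.2% of all measured genes. Between them the designs measured 37 of the 42 genes. The shares of all genes above 0, 51.3% on MOE430A and 46.0% on MOE430B, also stand beside the counts by role below.

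**Figure D1:**
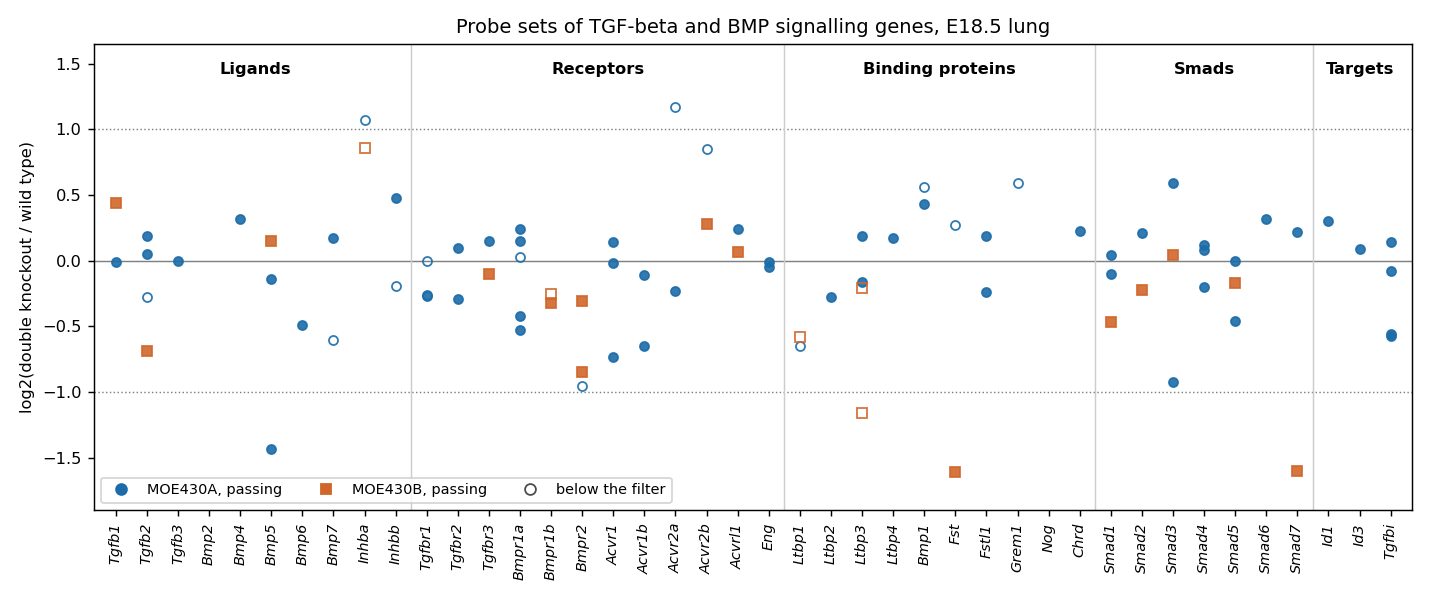
Log2 ratio of double knockout to wild type (y axis) for each probe set of each gene (x axis), by role; circles are MOE430A, squares MOE430B, open symbols probe sets below the filter, and dotted lines mark 2-fold. A symbol with 1 signal under the floor is drawn at its bound, and probe sets with both signals under the floor (all those of Bmp2 and Nog) are not drawn. Passing probe sets lie mostly within 0.5 of 0, and the 3 lowest are those of Fst, Smad7 and Bmp5.

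The ligands showed no common shift. On MOE430A 8 of 10 were measured, 5 above 0 and 3 below, with a median log2 ratio of 0.03 and a range from -0.49 to 0.48. Tgfb1, the ligand best known for driving matrix deposition, read 1615 and 1600 (-0.01) on MOE430A and 1645 and 2228 (0.44) on MOE430B. These probe sets differed by 0.45, so Tgfb1 had no settled direction. Tgfb2, a ligand of developing epithelium and heart, had log2 ratios of 0.05 (2041 and 2116) and 0.19 (934.7 and 1067) on MOE430A, but -0.69 (1537 and 952.4) on MOE430B. Tgfb3, the third isoform, read 864.4 and 864.7, a ratio of 0.00.

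Among BMP ligands, Bmp4, which is made at the tips of the growing airways, read 1684 and 2108 (0.32). Bmp7, a ligand expressed in epithelium of many organs, read 1206 and 1353 (0.17) by its passing probe set and 533.5 and 352.1 (-0.60) by one below the filter. Bmp6, a ligand that also controls iron balance, read 823.3 and 588.0 (-0.49), passing through the array labelled wild type alone. Bmp5, a ligand of lung mesenchyme, was read by 3 passing probe sets that disagreed. The MOE430B probe set read 8607 and 9543 (0.15). On MOE430A one read 1622 and 1477 (-0.14) and the other 813.8 and 301.3 (-1.43), the dimmer of this pair giving the larger difference. Bmp2, a close relative of Bmp4, read 179.0 and 189.2, under the floor in both arrays.

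The activin subunits went unmeasured or were read once. Inhbb, the activin beta-B chain, read 1271 and 1779 (0.48), the highest ratio among the measured of these 10 ligands, while its dimmer probe set below the filter read 618.0 and 540.4 (-0.19). Inhba, the activin beta-A chain, stayed below the filter on both designs. Its signals were 183.8 and 595.2 on MOE430A, at least 2.10-fold higher, and 155.7 and 505.8 on MOE430B, at least 1.82-fold higher. Both probe sets were under the floor in the arrays labelled wild type, so only bounds can be given.

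Receptors of the TGF-beta branch differed little. Over all receptors, 9 of 12 were measured on MOE430A, 4 above 0 and 5 below, with a median of -0.02 and a range from -0.27 to 0.24. The median of 5 on MOE430B was -0.10. Tgfbr2, the type II receptor that binds TGF-beta first, read 8000 and 8590 (0.10) by its brightest probe set and 2634 and 2157 (-0.29) by another. Tgfbr1, the type I kinase, read 2453 and 2040 (-0.27). Tgfbr3, or betaglycan, the co-receptor that presents ligand, read 1588 and 1759 (0.15) on MOE430A and 20875 and 19498 (-0.10) on MOE430B. All these ratios were near the error of 1 log2 ratio.

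The endothelial receptors gave the closest agreement between probe sets. Acvrl1, the type I receptor of endothelium also called ALK1, read 2586 and 3052 (0.24) on MOE430A and 7237 and 7584 (0.07) on MOE430B. Eng, or endoglin, the endothelial co-receptor, read 4234 and 4077 (-0.05) and 1120 and 1110 (-0.01). Of the 8 endothelial markers, all measured on MOE430A, 6 were above 0, with a median of 0.10 and a summed signal of 29901 and 32459.

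The BMP receptors Bmpr2 and Bmpr1b were measured on MOE430B alone. Bmpr2, the BMP type II receptor, was below 0 in every probe set. Its signals were 15903 and 12797 (-0.31) and 2291 and 1269 (-0.85) on MOE430B, and 675.0 and 349.4 (-0.95) on MOE430A below the filter. All 3 pointed the same way, at ratios that spread by more than the error of 1 ratio. Bmpr1a, a BMP type I receptor, was read by 4 passing probe sets, at 0.24 (2877 and 3406), 0.15 (1186 and 1315), -0.42 (1254 and 939.8) and -0.53 (1153 and 796.4), so that its direction turned with the probe set. Bmpr1b, the other BMP type I receptor, read 1708 and 1365 (-0.32) on MOE430B and was under the floor on MOE430A.

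Among receptors named for activin, which need not share its branch, Acvr1, a type I receptor also called ALK2, read 1090 and 1075 (-0.02), 903.8 and 993.9 (0.14), and 922.6 and 556.7 (-0.73). Acvr1b, the type I receptor ALK4, was below 0 in both passing probe sets, at 2312 and 2136 (-0.11) and 803.9 and 510.6 (-0.65). Acvr2a, a type II receptor, read 2198 and 1875 (-0.23) and, by a second probe set below the filter, 134.5 and 636.7, at least 2.24-fold higher. Acvr2b, the other type II receptor, read 1372 and 1665 (0.28) on MOE430B and 300.4 and 541.7 (0.85) below the filter on MOE430A. None of these receptors reached 1.5-fold in its brightest passing probe set.

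The latent TGF-beta binding proteins tether the inactive ligand to fibrillin-rich matrix. Ltbp4, known for its part in elastic fibres of the lung, read 5486 and 6183 (0.17). Ltbp3 read 4030 and 4582 (0.19) and 2903 and 2597 (-0.16), on either side of 0. On MOE430B its probe sets stayed below the filter, at 410.7 and 354.1 (-0.21) and at 621.0 and 163.0, the latter at least 2.23-fold lower. Ltbp2 read 1265 and 1045 (-0.28). Ltbp1 stayed below the filter, at 556.8 and 354.4 (-0.65) on MOE430A and 416.6 and 246.9 on MOE430B where the array labelled double knockout was under the floor.

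Follistatin, which sequesters activins, had a log2 ratio close to that of a Smad7 probe set given below, and these were the lowest of any passing probe sets of the 42 genes. Its gene Fst read 1232 and 404.8 on MOE430B, a log2 ratio of -1.61 and a 3.04-fold lower signal for the double knockout. On MOE430A its other probe set read 322.6 and 390.3 (0.27), below the filter and in the opposite direction. The MOE430B probe set passed through the array labelled wild type alone, with the floor raised to the median signal its log2 ratio was -0.53, and with a lowess curve removed it was -2.26. Fstl1, a secreted follistatin-like glycoprotein of mesenchyme, read 20118 and 16977 (-0.24) and 14458 and 16465 (0.19), again on both sides of 0.

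Chrd, chordin, read 835 and 977 (0.23). Grem1, gremlin, read 483.9 and 730.8 (0.59) below the filter, and Nog, noggin, read 101.6 and 221.9, under the floor in both arrays. Bmp1, a metalloprotease that cleaves chordin and procollagen and is no BMP ligand, read 1659 and 2237 (0.43), with a dimmer probe set at 317.1 and 467.1 (0.56) below the filter. Over the binding proteins, 6 of 10 were measured on MOE430A, 4 above 0 and 2 below, with a median of 0.18 and a range from -0.28 to 0.43, and Fst was the one measured on MOE430B.

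All 7 Smads were measured on MOE430A, and 6 were above 0 (51.3% of all genes), counting Smad5, whose ratio rounds to 0.00. Their median was 0.12. On MOE430B 5 were measured, 1 above 0 (46.0% of all genes) and 4 below, with a median of -0.22. Smad4, the partner shared by both branches, had ratios of 0.12 (3793 and 4119), 0.08 (3073 and 3250) and -0.20 (3753 and 3272). Smad2, a receptor Smad of the TGF-beta branch, read 1450 and 1671 (0.21) on MOE430A and 3575 and 3071 (-0.22) on MOE430B. The BMP receptor Smad Smad1 read 1828 and 1885 (0.04) and 916.6 and 856.1 (-0.10) on MOE430A and 5325 and 3841 (-0.47) on MOE430B. Smad5, another receptor Smad of the BMP branch, read 2264 and 2267 (0.00), 1022 and 743.6 (-0.46), and 11104 and 9846 (-0.17).

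Smad3, the other receptor Smad of the TGF-beta branch, was the single gene at least 1.5-fold lower on MOE430A, but its probe sets split. One read 1155 and 610.6 (-0.92), another 566.0 and 850.0 (0.59), and the MOE430B probe set read 9962 and 10208 (0.04). Each of the MOE430A probe sets passed the filter through 1 array only. With the floor at the median signal Smad3 was at -0.55 on MOE430A, and over its probe sets there the median was -0.17.

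The inhibitory Smads, which are themselves induced by the pathway, were slightly higher on MOE430A. Smad6, the inhibitor directed mainly at BMP receptors, read 1842 and 2307 (0.32), and Smad7, which restrains both branches, read 2632 and 3063 (0.22). On MOE430B a Smad7 probe set of the _x_at type, a class that may cross-hybridise, read 889.3 and 292.4 (-1.60), or 3.04-fold lower. Without the _x_at and _s_at probe sets Smad7 had no measured value on MOE430B, with the floor at the median signal it was at -0.06, and with a lowess curve removed it was at -2.71.

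Of the 3 target genes, 2 were above 0 and 1 below. Id1, a transcriptional inhibitor induced by BMP receptors, read 4849 and 5960 (0.30), and Id3, its relative, read 4126 and 4380 (0.09). Tgfbi, a secreted adhesion protein named for its induction by TGF-beta, read 5217 and 3523 (-0.57) and 2589 and 1758 (-0.56), while its 2 probe sets of the _x_at type read 3869 and 3661 (-0.08) and 3229 and 3562 (0.14). Tgfbi was thus below 0 in 3 of 4 probe sets, and the median over them was -0.32. Bmp4, Id1, Id3, Smad6 and Smad7 were all above 0 on MOE430A by at most 0.32, less than the SD of 0.37 between probe sets of 1 gene. On the same design Bmp6 (-0.49) and the brightest probe set of Bmp5 (-0.14) were below 0. The Smad7 probe set on MOE430B was at -1.60, so no common shift is read from these genes.

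Promoter sequences of Smad6, Id3 and Tgfbi are shown because these are induced genes of the pathway, Smad6 and Id3 on the BMP side and Tgfbi on the TGF-beta side. The ratios of Smad6 (0.32) and Id3 (0.09) were under the SD of 0.37 between probe sets of 1 gene. Those of Tgfbi ran from -0.57 to 0.14, so no contrast between the branches is drawn. They come from a RefSeq promoter table (GRCm38.p6) that was matched for 30 of the 42 genes, and run from 250 bases before to 10 after the annotated start, 5′ to 3′ on the strand of the gene. Capitals mark matches to GTCTAGAC, the palindromic Smad-binding element, to GGCGCC, a GC-rich element of BMP-responsive promoters, or to CAGACA, the core of the CAGA box, searched on both strands. The windows lie at chr9:64022050-64022309 (Smad6, minus strand), chr4:136143572-136143831 (Id3, plus strand) and chr13:56609336-56609595 (Tgfbi, plus strand).
Smad6: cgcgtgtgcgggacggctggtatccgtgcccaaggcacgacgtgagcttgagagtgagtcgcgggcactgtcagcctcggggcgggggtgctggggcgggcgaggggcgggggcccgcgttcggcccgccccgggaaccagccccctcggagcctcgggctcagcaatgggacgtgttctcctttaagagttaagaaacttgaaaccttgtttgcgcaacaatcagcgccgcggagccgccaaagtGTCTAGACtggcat
Id3: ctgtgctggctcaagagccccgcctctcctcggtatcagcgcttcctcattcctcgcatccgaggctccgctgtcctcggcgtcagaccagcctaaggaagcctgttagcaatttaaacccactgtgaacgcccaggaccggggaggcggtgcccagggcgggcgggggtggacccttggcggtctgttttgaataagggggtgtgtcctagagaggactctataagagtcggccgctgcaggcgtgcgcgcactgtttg
Tgfbi: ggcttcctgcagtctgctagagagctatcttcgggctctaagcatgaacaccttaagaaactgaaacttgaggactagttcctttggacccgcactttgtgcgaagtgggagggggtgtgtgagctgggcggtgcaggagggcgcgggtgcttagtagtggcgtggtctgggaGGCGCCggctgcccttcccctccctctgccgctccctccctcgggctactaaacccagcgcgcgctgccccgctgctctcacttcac

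The Smad6 window held the palindrome at positions -4 to 4 around its start, and 0.177% of 32851 promoter windows of the same length held it. Among the 30 matched genes, Smad6 was the one that did. The Tgfbi window held GGCGCC at -77 to -72, a motif in 9.96% of windows and in those of 8 of the 30 genes. CAGACA or its complement was in 18.1% of windows and in those of 6 of the 30 genes, and the Id3 window held none of the 3 motifs. Such a match describes the letters of the window and is not a measured binding site.

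Agreement between probe sets set a limit on every single value. Of the 37 measured genes, 20 were read by at least 2 passing probe sets over both designs, and in 15 of these the log2 ratios, taken at 2 decimals, fell on both sides of 0. Bmpr2, Acvr1b and Eng had none above 0, Smad5 had 0.00, -0.17 and -0.46, and Acvrl1 had none below 0. The median span between the highest and lowest log2 ratio of a gene was 0.48. Smad7 spanned 1.82, Bmp5 1.58 and Smad3 1.51. Of the 10 genes measured on both designs, Acvrl1 was the one with the same direction on both, and 7 had the lower ratio on MOE430B, by a median difference of -0.21 over the 10. The mean difference over the 100 shared probe sets was -0.22. However, the medians over all genes were 0.01 on MOE430A and -0.04 on MOE430B. The differences of the 10 genes ran from -1.82 (Smad7) to 0.95 (Smad3). Whether an offset between designs has a part in them was not tested. The shares of split genes, and of genes with 1 direction on both designs, are not given over all genes. These counts therefore limit the values and are not read as particular to the listed genes.

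**Figure D2:**
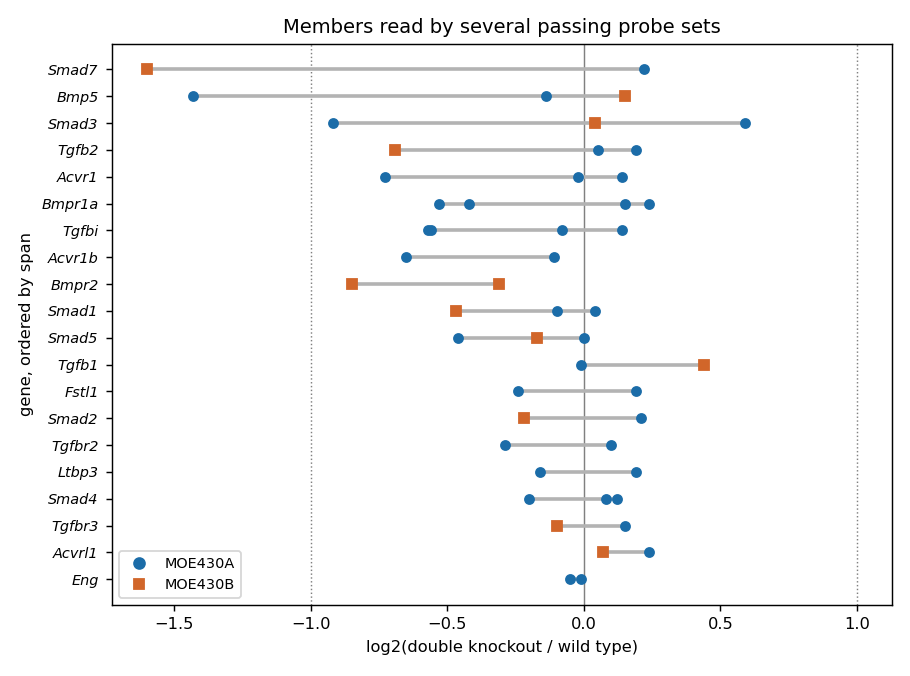
Log2 ratio of double knockout to wild type (x axis) for each passing probe set of the 20 genes read by at least 2 (y axis, widest span at the top); circles are MOE430A, squares MOE430B, grey bars join the lowest and highest value, and dotted lines mark 2-fold. The bars of Smad7, Bmp5 and Smad3 are over 1.5 long and cross 0, while those of Eng and Acvrl1 are the shortest.

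The larger differences lay mostly in dim probe sets. Of 68 passing probe sets of these genes, 9 were at least 1.5-fold different, 8 lower and 1 higher. Through 1 array only, 9 of the 68 had passed the filter, and 7 of these were at least 1.5-fold different. Through both arrays 59 had passed, and 2 of these were at least 1.5-fold different. A probe set that passes through 1 array only has to differ. Over all passing probe sets of MOE430A, 48.6% of those that passed through 1 array were at least 1.5-fold different, against 7.73% of those that passed through both, and on MOE430B the shares were 81.2% and 18.1%. The 2 probe sets of these genes that passed through both arrays and were at least 1.5-fold different were 1 each of Tgfb2 and Bmpr2, on MOE430B. Among the 39 probe sets of these genes whose higher signal reached the 75th percentile of its design (1828 and 1979), 1 was at least 1.5-fold different, the Bmpr2 probe set at -0.85. The share over all probe sets as bright was not computed, so this count is not read as a trait of these genes. The tie between dim signal and larger difference held over all passing probe sets, by the shares above.

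**Figure D3:**
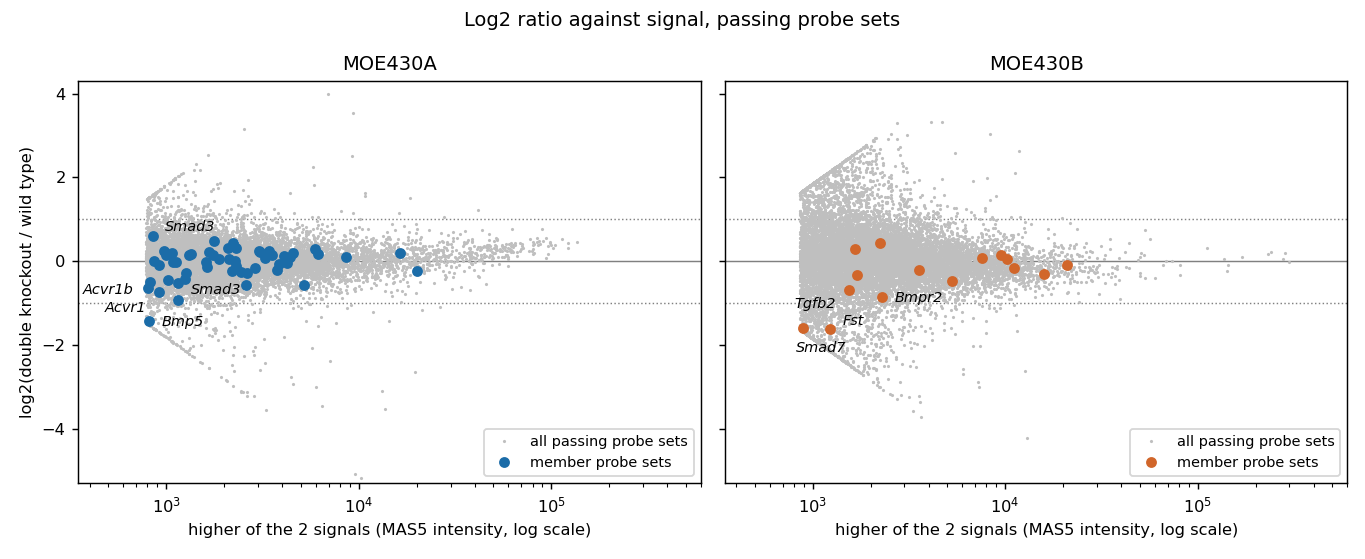
Log2 ratio of double knockout to wild type (y axis) against the higher of the 2 signals of a probe set (x axis, log scale), for all passing probe sets (grey) and those of the 42 genes (coloured); dotted lines mark 2-fold and names are given at 1.5-fold or more. The grey cloud widens towards low signal, more so on MOE430B, and the named probe sets of Fst, Smad7, Bmp5, Smad3, Acvr1 and Acvr1b lie at its dim end.

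Another 63 genes of the pathway were listed, of which 37 were measured on MOE430A and 13 on MOE430B. On MOE430A 17 were above 0 (51.3% of all genes) and 20 below, with a median of -0.11 against 0.01 for all genes. Of these, 2 were at least 1.5-fold higher (6.23% of all genes) and 8 lower (6.32%), 3 of the 8 at least 2-fold (1.78%). On MOE430B 5 were above 0 (46.0% of all genes) and 8 below, with a median of -0.12 against -0.04. There 2 were at least 1.5-fold higher (14.3%) and 1 lower (14.0%).

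Of the 4 further ligands measured on MOE430A, 3 were below 0. Gdf2, which encodes BMP9, a ligand of Acvrl1, read 1050 and 489.8 (-1.10). Gdf10 read 1088 and 539.1 (-1.01), and Bmp10, a ligand made in the heart that also engages Acvrl1, read 1131 and 690.6 (-0.71). All passed through the array labelled wild type alone. In the other direction Bmp8b, a BMP ligand, read 839.8 and 1789 (1.09) on MOE430B, passing through the array labelled double knockout. The heart markers beside Bmp10, 8 of 8 measured on MOE430A, had 6 above 0 and a summed signal of 276088 and 310242.

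The extracellular modulators past 1.5-fold passed through both arrays by their brightest probe sets. Dcn, decorin, a matrix proteoglycan that binds TGF-beta, read 7766 and 4666 (-0.73). Htra1, a secreted protease, read 2926 and 1709 (-0.78) and 1183 and 291.6 (-2.02), the latter an _x_at probe set that passed through the array labelled wild type alone. Thbs1, thrombospondin, which activates latent TGF-beta, read 1959 and 1242 (-0.66) and 1556 and 1440 (-0.11). The probe sets of Emilin1, an elastic fibre protein that hinders TGF-beta processing, read 0.06 (2663 and 2767) and 1.02 (652.9 and 1323). Rgmb, a BMP co-receptor, ranged from -0.33 to 0.88 over 5 probe sets.

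Among further target genes, Ccn2, a matricellular protein induced by TGF-beta, read 5030 and 2302 (-1.13), passing through both arrays. Col1a1, a chain of type I collagen, read 17496 and 10192 (-0.78), but 9057 and 9292 (0.04) by its other probe set. Acta2, smooth muscle actin, read 26822 and 38726 (0.53). Id4 read 723.7 and 1126 (0.64) and Msx2, a homeobox target of BMPs, 802.3 and 1240 (0.63) on MOE430B. Snai2, a repressor of epithelial genes, was 0.59 (762.2 and 1144) on MOE430A and -0.67 (16674 and 10471) on MOE430B. Id4, Msx2 and the MOE430A probe set of Snai2 passed through the array labelled double knockout alone. Id2 was split as well, at -0.34 (3195 and 2522) and 0.31 (2532 and 3148), by probe sets that passed through both arrays. Mesenchyme markers, a list that shares Col1a1 and Dcn, were 4 above 0 and 5 below of 9 measured on MOE430A, with a summed signal of 109287 and 108831 over 10 genes. Smooth muscle markers, a list that shares Acta2, were 6 above 0 of 7, at 39412 and 53895 over 8 genes. Their part in the target values was not tested.

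The intracellular regulators differed little. On MOE430A 8 of 12 were measured, with a median of 0.09 and a range from -0.20 to 0.37, and on MOE430B 6 with a median of -0.23 and a range from -0.45 to 0.06. Ski, a corepressor of Smads, was the highest on MOE430A at 2266 and 2921 (0.37), but read 13041 and 10440 (-0.32) on MOE430B. Skil, its relative, read 2978 and 2601 (-0.20). Smurf2, a ubiquitin ligase for Smads and receptors, was below 0 in its 3 probe sets, the brightest at 17776 and 16034 (-0.15). One MOE430B probe set of Ppm1a, a phosphatase of receptor Smads, read 733.4 and 2085 (1.51), passing through the array labelled double knockout alone. The other passing probe sets of Ppm1a ranged from -0.45 to 0.10. The -0.45 came from a probe set carried by both designs, which read 0.01 on MOE430A.

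**Figure D4:**
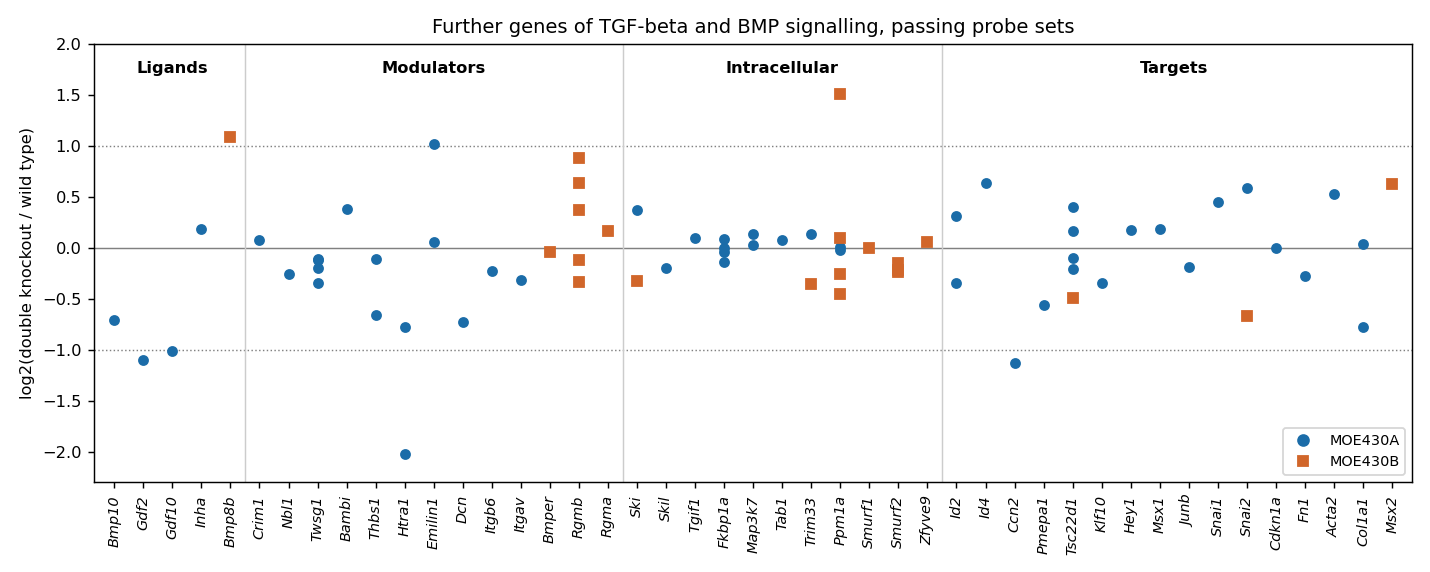
Log2 ratio of double knockout to wild type (y axis) for each passing probe set of the further pathway genes (x axis), by role; circles are MOE430A, squares MOE430B, and dotted lines mark 2-fold. Intracellular regulators lie close to 0 apart from 1 Ppm1a probe set, and Htra1, Ccn2, Gdf2 and Gdf10 hold the lowest values.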

How the data were processed

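The deposited values are signal intensities on a linear scale, 1 per probe set and array. Biotin-labelled cRNA was made from 6 µg of total RNA, per the labels' protocols. The submitters' processing notes name MAS5; no version or settings were given in the sources used here. Every array had a 2% trimmed mean of 1500, the level to which the authors had scaled it. Such scaling assumes equal total signal between genotypes, and MAS5 signals are noisy when dim.

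From these intensities, 64 controls on each design were dropped. The double knockout array was divided by 1 factor per design (1.0038 and 1.0076) that set the median ratio of passing probe sets to 1. The filter, the floor and the choice of 1 probe set per gene followed. Ratios were formed only within a design, over 7658 and 6728 measured genes. Gene names came from GEO's platform annotation, and all 96 probe sets of the 42 genes had the same symbol by Entrez ID in the RefSeq table of GRCm38.p6. A probe set paired with Acvr2a and another gene was left out. No test was possible, and values are named by membership of the lists, further pathway genes where a passing probe set reached 1.5-fold. Ski, Skil, Smurf2, Id2 and Acta2 were named after their values were seen. The members and lists were chosen with earlier results of these data known. The 9 alternatives covered scaling, floor, filter and the probe sets of a gene. The steps were tested on simulated arrays. The work used python 3.11, numpy 2.4.6, pandas 2.3.3, statsmodels 0.14.6 and matplotlib 3.10.9.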

Additional observations from a re-analysis of the deposited data

How the results depend on the processing

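No paired analysis was possible because each genotype had 1 array per design and the labels carry no replicate numbers. Leaving out a replicate was not possible for the same reason. Of 161 recomputed medians and counts, 147 stayed within the error of 1 log2 ratio (0.24), or within 1.5 times the count, and no 2-fold value of a gene changed sign. Part of this was given beforehand. The signals as deposited differ from the main setting only by the factors 1.0038 and 1.0076, and most of the counts were 0 at the outset. With no filter, the genes at least 1.5-fold higher on MOE430A came to 3 instead of 0, those 1.5-fold lower to 3 instead of 1 and those 2-fold higher to 1 instead of 0, and on MOE430B 1 was 1.5-fold higher instead of 0. With the floor at the median signal, none was 1.5-fold lower on MOE430A (0), and on MOE430B 1 was 1.5-fold lower instead of 3 and 0 were 2-fold lower instead of 2. With the filter at the 75th percentile, 0 were 1.5-fold lower on either design and 0 were 2-fold lower on MOE430B. Without the _x_at and _s_at probe sets, 1 was 2-fold lower on MOE430B. The value for binding proteins on MOE430B, -1.61 from Fst alone, was -2.26 with a lowess curve removed, -0.53 with the floor at the median and -0.58 with no filter, which brought in Ltbp1 and Ltbp3. A higher floor and a higher filter act on dim probe sets by construction. The other changes have causes that were not tested. Of 404 recomputed values of single genes, 13 moved by more than the error, in 10 gene and design pairs. The number of arrays, and the signal over background of the dim probe sets, limit the precision of every value.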
